A study of Homo sapiens with 60 samples.

Results

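The comparison concerns the loss of UGGT1 in cells that had already lost UGGT2: *ALG6/UGGT1/UGGT2*-/- cells, the triple knockout, were set against *ALG6/UGGT2*-/- cells, with 3 biological replicates of each line. The genes followed are those with at least 1 CPM (counts per 1000000) in at least 3 of these 6 libraries. Of the 42141 genes listed, 14113 met this rule, and between 13679 and 13949 of them were at 1 CPM or more in any single library. Both lines were made by CRISPR/Cas9 from HEK293-EBNA1-6E, a human embryonic kidney line with the viral protein EBNA1, and both lack ALG6 as well as UGGT2. Cells were grown for 48 hours in medium with fetal bovine serum and no added drug, and poly(A) mRNA was sequenced. Each knockout line was grown from a colony of a single cell and 1 line per genotype was sequenced, so an effect of the clone cannot be told apart from an effect of losing UGGT1. The labels call the replicates biological, and the study describes its RNAseq values as coming from independent experiments of these lines. In bulk RNA, fewer cells of a kind and less RNA per cell cannot be told apart.

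ALG6 adds the first glucose to the lipid-linked N-glycan precursor in the endoplasmic reticulum (ER). UGGT1 and UGGT2 are folding sensors of the ER lumen: they put a single glucose back onto the N-glycans of glycoproteins that have not reached their native fold, and the lectin chaperones calnexin and calreticulin bind the monoglucosylated form. In cells without ALG6, glycans arrive on the protein without glucose, so binding to the lectin chaperones depends on the UGGTs, and in the triple knockout neither enzyme is left. Stress in the ER is read by the sensors ATF6, IRE1 and PERK. ATF6 raises mRNAs of ER chaperones, IRE1 splices the *XBP1* mRNA into an active transcription factor, and PERK raises translation of ATF4, which drives genes for amino acid supply and, through CHOP, for cell death.

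The 6 libraries held 24.42 to 27.2 reads per CPM, so a gene at 1 CPM rested on about that many estimated reads. Pearson correlations of log2(CPM + 0.5) were 0.996 within the triple knockout, 0.983 to 0.996 within *ALG6/UGGT2*-/- cells and 0.960 to 0.970 between the lines. *ALG6/UGGT2*-/- replicate 1 stood apart from its 2 fellows: the second principal component, with 18.1% of the variance, separated it from them, its median ratio to the 6 libraries was 0.961 against 1.055 and 1.073, and 8.28% of its CPM came from mitochondrial genes against 6.97 and 7.50% in the others. Results that move by over 1.5 times without this library are given both ways. The cells carried the markers of their line: of 10 HEK293 markers 9 passed the filter, *VIM* and *KRT8* among them, and *NEFM* was at most 0.151 CPM. Of 18 markers of other cell types, 14 were below the filter, and *PTPRC*, *HBB*, *INS* and *KRT5* were listed at 0 in the 6 libraries. *ACTA2*, *CDH1*, *DES* and *GFAP* passed the filter. *ACTA2* was at 42.0 to 46.4 CPM in *ALG6/UGGT2*-/- cells and at 8.23 to 9.24 CPM in the triple knockout.

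The edited genes were measured first. *UGGT1*, on chromosome 2 from 128091200 to 128195677 of GRCh38, was at 59.5, 77.0 and 77.6 CPM in the 3 *ALG6/UGGT2*-/- replicates and at 33.1, 31.0 and 31.0 CPM in the triple knockout. The lines did not overlap, and the log2 fold change was -1.15 ± 0.11 (standard error; limma adjusted p = 0.000182). With the spread estimated over all 15 libraries of the series it was no longer called (adjusted p = 0.0888 from limma). *ALG6*, edited in both lines (chromosome 1, 63367575 to 63438553), was at 3.55, 4.59 and 5.87 CPM and at 2.83, 3.24 and 2.81 CPM. It was called lower by limma (-0.56 on the log2 scale, adjusted p = 0.0314), and the call was lost after transcript length and GC content were corrected for (-0.25, adjusted p = 0.0586). *UGGT2*, also edited in both (chromosome 13, 95801580 to 96053482), was at 11.2, 14.9 and 17.8 CPM and at 14.2, 14.0 and 14.6 CPM, a log2 fold change of -0.01 (standard error 0.16). The exact two-sided permutation test gave p = 0.1 for *UGGT1* and for *ALG6*, the smallest p that 3 against 3 replicates allow, and p = 0.7 for *UGGT2*. In WT cells the means were 67.0 CPM for *UGGT1*, 14.3 CPM for *ALG6* and 18.3 CPM for *UGGT2*. *ALG6* was thus lower in both lines than in WT cells (means of 4.67 and 2.96 CPM). The *UGGT2* means of 14.6 and 14.3 CPM were also below that of WT cells. They lay above the 10.9 CPM of *ALG6*-/- cells, in which UGGT2 is intact, so its mRNA level does not bear out its loss. An edit that shifts the reading frame need not remove the mRNA.

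Losing UGGT1 on this background went with a wide change in mRNA. At an adjusted p under 0.05 from limma, 7191 of the 14113 genes were called, or 51.0%: 3074 were higher in the triple knockout (21.8%) and 4117 were lower (29.2%). The median log2 fold change over all genes was -0.05, and the middle 50% of genes lay between -0.38 and 0.25. Large changes were mostly falls. Of the called genes, 198 rose by over 1 on the log2 scale (1.4% of the genes tested) and 615 fell by over 1 (4.36%). The split between rises and falls depended on the scaling: 42.7% of the calls were rises, against 50.3% after rescaling each library by its median ratio, 51.2% after quantile normalization and 52.8% with the length and GC correction. Replicates of the 2 lines did not overlap for 61.4% of all genes, so a gene whose replicates are separate is common here. With the spread estimated over all 15 libraries, 14.7% of the genes were higher and 21.7% lower, and of the 212 genes called among those the naming rule gives, 15 were no longer called. *UGGT1*, *HEXA*, *HSPA9*, *ITGA8*, *ITGA9*, *LTBP1*, *CDH1* and *MT-CO2* were among these. Over the 12 libraries of lines without ALG6, 17 lost the call, *CANX* and *SAR1A* among them. Shares of a list are to be read against the 21.8% of all genes that rose and the 29.2% that fell. List counts without *ALG6/UGGT2*-/- replicate 1 are to be read against 3773 genes higher and 6098 lower of the 14113. With the length and GC correction, 34.6% of 12983 genes were higher and 30.9% lower. List counts over 15 libraries are to be read against the 14.7% higher and 21.7% lower of that fit.

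The clearest group was that of the ER chaperones and other targets of ATF6. Of its 19 members, all of which were tested, 14 rose (73.7%, against 21.8% of all genes), 2 fell and 3 were not called, and the median log2 fold change was 1.13 against -0.05. *CALR*, which encodes calreticulin, one of the lectin chaperones that read the glucose left by the UGGTs, had the largest rise of any gene named here. It was at 441, 397 and 379 CPM in *ALG6/UGGT2*-/- cells and at 2282, 2344 and 2379.7 CPM in the triple knockout, 5.76-fold higher (2.53 ± 0.06 on the log2 scale with its standard error, limma adjusted p = 4.76e-06). *HSPA5*, for the chaperone BiP, rose from 475, 527 and 513 CPM to 1464, 1377 and 1421 CPM, and *HSP90B1*, for GRP94, from 237, 325 and 349.8 CPM to 885, 890.4 and 916 CPM. The replicates of the 2 lines were far apart for both genes, with log2 fold changes of 1.49 and 1.58. The low *HSP90B1* value was that of *ALG6/UGGT2*-/- replicate 1, and without it the log2 fold change was 1.41.

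The disulfide isomerases of the group rose as well. *PDIA4* went from 208, 199 and 189 CPM to 561, 516 and 559 CPM, *PDIA3*, the partner of calnexin and calreticulin, from 228, 233 and 211 CPM to 516, 483 and 513 CPM, and *PDIA6* from 302, 291 and 295 CPM to 582, 537 and 579 CPM. *HYOU1*, which exchanges the nucleotide of BiP, had a log2 fold change of 1.13, and *MANF*, a secreted factor of stressed ER, one of 1.25. Named after their values were seen, *DNAJB11* (1.27), *SDF2L1* (1.24), *PPIB* (1.21), *CRELD2* (0.73) and *HERPUD1* (0.20) completed the rises. The 2 members that fell were *SEL1L*, which holds the degradation ligase in the ER membrane (-0.68), and *SERPINH1*, the chaperone of collagen (-0.38). *DNAJC3*, *SIL1* and *DNAJC10* had log2 fold changes of 0.31, -0.01 and -0.03 and were not called. Without *ALG6/UGGT2*-/- replicate 1 the count was 14 higher and 3 lower.

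**Figure D1:**
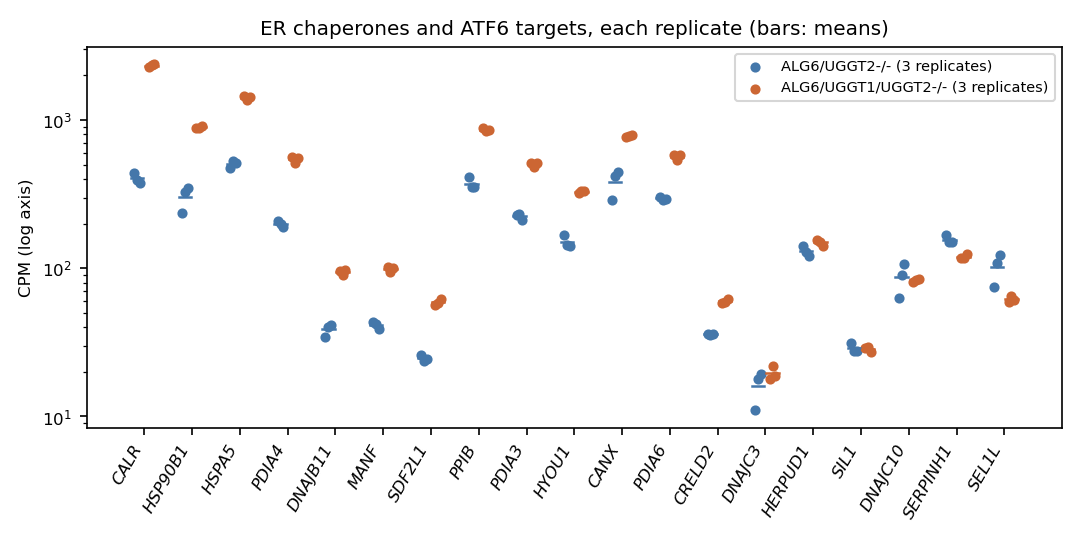
CPM of the 19 ER chaperones and ATF6 targets on a log axis, 3 points per line and a bar at their mean, ordered by fold change. The orange points of the triple knockout lie above the blue points of *ALG6/UGGT2*-/- cells for most genes, most widely for *CALR* (379 to 441 against 2282 to 2379.7 CPM), and below them for *SEL1L* and *SERPINH1*.

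Promoters of these genes are shown because ATF6 acts through a known sequence, the ER stress response element, which reads CCAAT, 9 bases of any kind and then CCACG. In the RefSeq promoter table for GRCh38.p14, with 250 bases before and 50 after each gene's start, 18 of the 19 members had an entry. On either strand, 5 of the 18 held the element (27.8%), against 22 of 27305 promoters in all (0.0806%): *HSPA5*, *HSP90B1*, *CALR*, *CANX* and *CRELD2*, each of which rose. Of these, 3 follow with the element in capitals, read 5′ to 3′ along the strand of the gene. *HSPA5* lies on the minus strand (chr9:125241294-125241593) with the element beginning 66 bases before the start. *CALR* (chr19:12938359-12938658) holds it on the opposite strand, at 225 bases before the start. *HSP90B1* (chr12:103930160-103930459) holds it 2 times, once on each strand. The list was made of ER chaperones and targets of ATF6, so its share of matches is not independent of how it was chosen. A match is a string of letters and was not tested for binding.
HSPA5: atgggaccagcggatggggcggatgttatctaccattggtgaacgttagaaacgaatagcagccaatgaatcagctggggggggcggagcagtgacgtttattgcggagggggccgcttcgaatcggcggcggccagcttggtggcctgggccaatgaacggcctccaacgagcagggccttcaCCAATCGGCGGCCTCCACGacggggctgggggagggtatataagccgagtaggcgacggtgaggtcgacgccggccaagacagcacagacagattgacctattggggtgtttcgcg
CALR: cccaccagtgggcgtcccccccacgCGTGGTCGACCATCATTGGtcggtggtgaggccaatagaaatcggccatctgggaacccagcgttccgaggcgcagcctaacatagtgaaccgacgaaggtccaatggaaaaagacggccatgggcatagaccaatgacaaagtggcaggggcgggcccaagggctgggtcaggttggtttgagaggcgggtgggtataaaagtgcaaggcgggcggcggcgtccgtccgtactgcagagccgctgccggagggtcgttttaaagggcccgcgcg
HSP90B1: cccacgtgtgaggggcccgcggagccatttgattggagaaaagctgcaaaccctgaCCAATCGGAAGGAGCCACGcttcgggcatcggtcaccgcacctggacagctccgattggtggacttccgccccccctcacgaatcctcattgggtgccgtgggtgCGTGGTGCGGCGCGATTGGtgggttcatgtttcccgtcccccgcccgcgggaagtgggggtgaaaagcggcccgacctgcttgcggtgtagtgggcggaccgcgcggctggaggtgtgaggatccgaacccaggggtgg

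In the calnexin cycle itself, the lectin chaperones and *PDIA3* changed more than the chains of glucosidase II. Of 9 genes for glucose trimming and the cycle 8 were tested, of which 3 rose (37.5%, against 21.8% of all genes) and 5 were not called. Their median was 0.12, and 5 rose and 1 fell without *ALG6/UGGT2*-/- replicate 1. The 3 that rose with all libraries were *CALR*, *PDIA3* and *CANX*. *CANX*, for calnexin, was at 289, 418 and 444 CPM in *ALG6/UGGT2*-/- cells and at 775, 784 and 795 CPM in the triple knockout, with replicate 1 of the former far below the other two. Its log2 fold change was 1.06, and 0.86 without that library. Both chains of glucosidase II, *GANAB* (0.09, adjusted p = 0.282) and *PRKCSH* (0.14, adjusted p = 0.0732), and the glucose-binding ER lectin *MLEC* (0.10, adjusted p = 0.13) were not called by limma. Without *ALG6/UGGT2*-/- replicate 1, limma called *GANAB* (0.15, adjusted p = 0.00225) and *PRKCSH* (0.17, adjusted p = 0.00268) higher. *MLEC* was still not called (0.09, adjusted p = 0.0708 from limma).

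Among 12 subunits of the oligosaccharyltransferase, which transfers the glycan to the protein, 6 rose (against 21.8% of all genes) and 1 fell, with a median of 0.22. *RPN1*, a shared subunit, rose from 559, 501 and 475 CPM to 701, 695 and 701 CPM (log2 fold change 0.45), *DDOST* had a log2 fold change of 0.36 and *KRTCAP2* one of 0.44, while *DAD1* fell by 0.32 on the log2 scale. Among 23 genes for assembly of the glycan precursor, 2 rose and 8 fell (8.7 and 34.8%, against 21.8 and 29.2% of all genes), so that the falls were near the share of all genes. Their median was -0.17, and 0.02 with the length and GC correction. *SRD5A3*, which makes the dolichol that carries the precursor, fell from 41.0, 36.4 and 37.8 CPM to 20.9, 18.1 and 19.9 CPM. *ALG8*, for the second glucosyltransferase, fell by 0.49 on the log2 scale, and *DPM3*, a subunit of dolichol-phosphate mannose synthase, had a log2 fold change of 0.45.

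Genes downstream in the ER were also mixed. Of 20 disulfide isomerases and thiol oxidases 7 rose and 5 fell, with a median of -0.02: *P4HB* had a log2 fold change of 0.60, while *TMX1* (-0.82) and *GPX8* (-0.86) fell. Of 25 genes for degradation from the ER 6 rose and 6 fell (24.0% each, near the 21.8 and 29.2% of all genes), with a median of 0.10. The counts were 11 and 9 without *ALG6/UGGT2*-/- replicate 1, 5 and 1 over 15 libraries, and 15 and 5 with the length and GC correction. *DERL3*, a channel-like protein of the degradation complex that is induced in ER stress, rose from 8.67, 8.97 and 8.35 CPM to 34.9, 36.5 and 40.0 CPM (log2 fold change 2.04, adjusted p = 1.39e-05 from limma). The segregase *VCP* (0.62) and the lectin *OS9* (0.56) rose, and *NPLOC4*, a cofactor of VCP, fell by 0.37 on the log2 scale. *EDEM2*, which trims mannose on doomed glycoproteins, was at 22.2, 20.4 and 19.9 CPM and at 23.2, 22.2 and 21.5 CPM, and was not called (adjusted p = 0.343 from limma). Of 26 genes for ER export and retrieval 7 rose and 7 fell (26.9% each). *SEC24D*, a cargo adaptor of the COPII coat, had a log2 fold change of 1.25 and *TMED2* one of 0.73, whereas the COPII GTPase *SAR1A* (-0.75) and *TFG* (-0.55) fell. Of 24 Golgi genes for N-glycan processing 5 rose and 6 fell: the branching enzymes *MGAT4B* (0.92), *MGAT5* (0.66) and *MGAT1* (0.54) rose, and *MGAT2* (-0.65) and *B4GALT5* (-0.73) fell. Leaving out *ALG6/UGGT2*-/- replicate 1 gave 11 rises and 10 falls for export and 8 and 9 for the Golgi genes.

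Of the IRE1 branch, *XBP1* mRNA fell from 620.0, 577 and 573 CPM to 255, 255 and 237 CPM (-1.24 ± 0.05 on the log2 scale with its standard error, limma adjusted p = 1.54e-05), and the lines did not overlap. Its sensor *ERN1*, for IRE1, fell from 36.9, 38.9 and 41.7 CPM to 24.4, 22.4 and 22.1 CPM. The table gives 1 value per gene, so spliced and unspliced *XBP1* cannot be told apart. Of 24 genes on the list of IRE1 and XBP1 targets, 9 rose and 5 fell (37.5 and 20.8%, against 21.8 and 29.2% of all genes), with a median of 0.13, and 12 and 9 did so without *ALG6/UGGT2*-/- replicate 1. *SRP14*, a subunit of the signal recognition particle, and *SEC11C*, of the signal peptidase, each had a log2 fold change of 0.68, while *SRPRB*, of the receptor of the signal recognition particle, fell by 0.76 on the log2 scale.

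**Figure D2:**
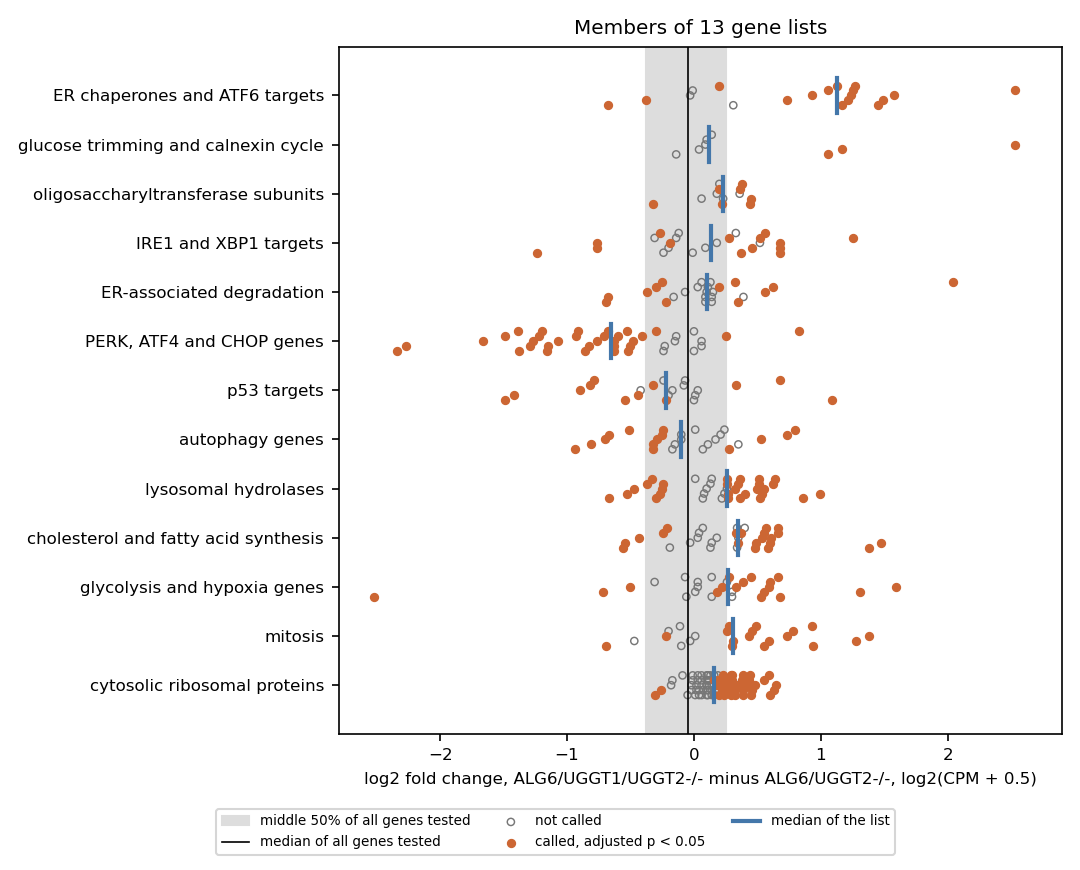
Log2 fold changes, triple knockout minus *ALG6/UGGT2*-/- on log2(CPM + 0.5), for the members of 13 gene lists. Filled points are called at an adjusted p under 0.05, blue bars are list medians, and the grey band spans the middle 50% of all genes (-0.38 to 0.25). The ER chaperones lie furthest to the right (median 1.13) and the PERK, ATF4 and CHOP genes furthest to the left (median -0.66).

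The genes downstream of PERK, ATF4 and CHOP went the other way from the chaperones. Of 40 members, all tested, 30 were lower in the triple knockout (against 29.2% of all genes), 2 were higher and 8 were not called, and the median log2 fold change was -0.66. *ATF4* mRNA itself was at 1024, 965 and 962 CPM and at 1073, 1025 and 985 CPM. It was not called (0.06 ± 0.05 on the log2 scale with its standard error, limma adjusted p = 0.337), and the 2 lines overlapped. ATF4 is set mainly by translation, which these data do not measure. The kinase *EIF2AK3*, for PERK, was at 13.3, 22.9 and 22.6 CPM and at 16.8, 15.6 and 16.0 CPM and was not called either (log2 fold change -0.23, adjusted p = 0.368 from limma). The low value of 13.3 CPM was that of *ALG6/UGGT2*-/- replicate 1. Without that library *EIF2AK3* was called lower (-0.48, adjusted p = 5.5e-05 from limma). *DDIT3*, for CHOP, had a log2 fold change of 0.00 (standard error 0.12).

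The largest fall on the list was that of *CTH*, which makes cysteine from cystathionine: 112, 120.5 and 125 CPM became 23.7, 25.4 and 20.5 CPM (-2.34 ± 0.09 on the log2 scale with its standard error, limma adjusted p = 1.26e-05). *ATF3*, a stress-induced transcription factor, fell from 796, 726 and 770.1 CPM to 179, 172 and 127 CPM (log2 fold change -2.27), and *CHAC1*, which degrades glutathione, from 179.7, 164 and 162 CPM to 55.2, 56.1 and 48.3 CPM (-1.66). For *CTH*, *ATF3* and *CHAC1* the highest triple knockout replicate was below the lowest of *ALG6/UGGT2*-/- cells by a wide margin. The mitochondrial *PCK2* fell by 1.49 on the log2 scale, the secreted *STC2* by 1.29 and *SLC7A1*, the carrier of cationic amino acids, by 1.27. Among members named after their values were seen, the serine synthesis genes *PSPH* (-1.39) and *PSAT1* (-1.07), the pseudokinase *TRIB3* (-1.15), the phosphatase subunit *PPP1R15A* (-1.20) and *ASNS*, for asparagine synthetase (-0.93), fell. Of the 2 that rose, *ATF5*, a transcription factor of the same family, went from 157, 149 and 145 CPM to 268, 277 and 256 CPM (log2 fold change 0.83, adjusted p = 5.08e-05 from limma), and *AARS* had a log2 fold change of 0.25. Without *ALG6/UGGT2*-/- replicate 1 the counts were 33 lower and 3 higher.

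**Figure D3:**
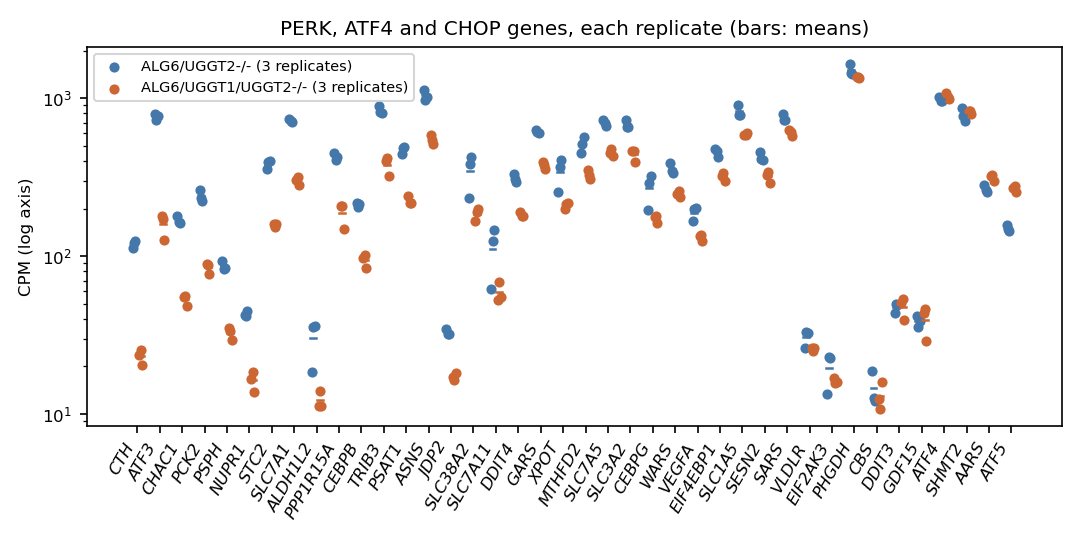
CPM of the 40 PERK, ATF4 and CHOP genes on a log axis, 3 points per line and a bar at their mean, ordered from the largest fall (*CTH*) to the largest rise (*ATF5*). The orange points of the triple knockout lie below the blue points for most genes from *CTH* onward, and the 2 lines overlap at *DDIT3*, *GDF15* and *ATF4*.

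ATF4 binds with partners of the C/EBP family to elements that contain TGATGNAA. Of the 40 members 31 had a promoter entry, of which 6 held these letters on either strand (19.4%), against 1003 of 27305 promoters in all (3.67%). The 6 were *ATF3*, *CHAC1*, *ASNS*, *SLC3A2* and *SLC7A1*, which fell, and *AARS*, which rose. This list was made of genes downstream of ATF4 among others, so its share is not independent of that choice, and binding was not tested. *CHAC1* (chr15:40953221-40953520) and *ATF3* (chr1:212565157-212565456) are printed for the size of their falls, with the match in capitals, on the opposite strand for *CHAC1* at 209 bases before the start and on the gene's own strand for *ATF3* at 191 bases before it.
CHAC1: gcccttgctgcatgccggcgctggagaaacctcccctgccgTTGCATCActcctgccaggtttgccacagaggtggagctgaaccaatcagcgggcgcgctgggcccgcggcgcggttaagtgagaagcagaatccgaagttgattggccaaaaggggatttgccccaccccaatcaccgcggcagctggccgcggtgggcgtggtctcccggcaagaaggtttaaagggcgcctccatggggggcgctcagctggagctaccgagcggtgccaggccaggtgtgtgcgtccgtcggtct
ATF3: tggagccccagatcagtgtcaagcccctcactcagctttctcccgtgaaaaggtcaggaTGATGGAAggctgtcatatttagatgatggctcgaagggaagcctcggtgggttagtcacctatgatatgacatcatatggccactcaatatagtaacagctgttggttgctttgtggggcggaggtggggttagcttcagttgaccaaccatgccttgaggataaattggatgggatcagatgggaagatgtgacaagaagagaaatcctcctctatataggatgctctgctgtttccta

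Lysosomal hydrolases are glycoproteins that fold in the ER. Of 37 tested, 19 rose and 9 fell (51.4 and 24.3%, against 21.8 and 29.2% of all genes), with a median of 0.26. Over 15 libraries the counts were 12 and 5. The list left out *GALC*, also a lysosomal hydrolase, which fell by 3.54 on the log2 scale. The lowest value on the list was -0.67. *CTSA*, for the protective protein cathepsin A, rose from 18.7, 16.8 and 15.5 CPM to 33.2, 32.8 and 36.3 CPM, *CTSL*, for cathepsin L, from 21.4, 24.8 and 22.2 CPM to 43.6, 42.8 and 38.6 CPM, and *GLA*, for alpha-galactosidase A, from 83.7, 74.4 and 71.5 CPM to 111, 105 and 110.1 CPM. The rises of *TPP1* and *HEXA* were smaller (log2 fold changes of 0.35 and 0.27). *ARSA* (-0.24, called under 10 of 17 alternatives), *NAGLU* (-0.37) and the glucosidase *GAA* (-0.47) fell, and *FUCA1* was not called (0.08, adjusted p = 0.47 from limma). Of 28 genes for the lysosomal membrane and its biogenesis 11 rose and 4 fell (39.3 and 14.3%). The proton pump subunits *ATP6V1D* (0.97) and *ATP6V0D1* (0.73) and the membrane protein *LAMP1* (0.56) rose. *TFE3*, a transcription factor for lysosomal genes (-0.53), and the cholesterol exporter *NPC1* (-0.38) fell. When *ALG6/UGGT2*-/- replicate 1 was left out, 14 of the 28 rose and 7 fell.

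The mRNAs of the glycoproteins that the study listed as substrates showed no common direction. Of 64 UGGT1 substrates tested 19 rose and 12 fell (29.7 and 18.8%, against 21.8 and 29.2% of all genes), with a median of 0.07, and without *ALG6/UGGT2*-/- replicate 1 the counts were 25 and 24. Over 15 libraries they were 11 and 7. Of 33 UGGT2 substrates 12 rose and 9 fell (36.4 and 27.3%), or 6 and 5 over 15 libraries. *HYOU1* (1.13) and the basement membrane proteoglycan *AGRN* (0.54) rose, and the collagen prolyl isomerase *FKBP10* (-0.70), *COL6A1* (-0.53), *FUCA2* (-0.50) and *LGMN* (-0.53) fell. Both lists rest on protein enrichment in the same study. Most of the UGGT2 substrates were also UGGT1 substrates there, so the lists share members and are not separate groups.

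Of 32 genes for cholesterol and fatty acid synthesis 15 rose and 5 fell (46.9 and 15.6%, against 21.8 and 29.2% of all genes) and 12 were not called, with a median of 0.34. *INSIG1*, which holds the SREBP transcription factors in the ER, rose from 52.0, 63.6 and 65.2 CPM to 172, 156 and 175.5 CPM (log2 fold change 1.47), and *FDFT1*, for squalene synthase, from 52.8, 47.4 and 47.9 CPM to 128, 127 and 132 CPM (1.38). Of 28 genes of glycolysis and hypoxia 14 rose and 3 fell (the latter 10.7%) and 11 were not called, with a median of 0.27. *NDRG1*, a hypoxia-induced gene, rose from 140.3, 129 and 120.1 CPM to 397, 379 and 398 CPM (log2 fold change 1.59), and *PFKFB4*, *HK1* and *ENO2* had log2 fold changes of 1.31, 0.68 and 0.66. *TXNIP*, which restrains glucose uptake, went the other way, from 207, 195 and 187 CPM to 37.8, 34.5 and 29.9 CPM (-2.52).

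Of 23 mitotic genes 15 rose and 2 fell (65.2 and 8.7%, against 21.8 and 29.2% of all genes), with a median of 0.31. Over 15 libraries 6 of the 23 rose and 1 fell, beside 14.7% of all genes higher and 21.7% lower in that fit. *CCNB1*, for cyclin B1, was at 45.5, 45.5 and 45.1 CPM and at 125, 117 and 115 CPM (log2 fold change 1.38), *KIF20A* and *AURKA* had log2 fold changes of 0.94 and 0.73, and *CDK1*, the kinase that cyclin B1 activates, fell from 112, 111 and 138 CPM to 75.9, 73.8 and 72.1 CPM (-0.69). Of 26 replication genes 4 rose and 6 fell (15.4 and 23.1%), or 10 and 5 with the length and GC correction. *RRM2*, of the ribonucleotide reductase, had a log2 fold change of 1.14, and *MCM3* (-0.51) and *PCNA* (-0.54) fell. Without *ALG6/UGGT2*-/- replicate 1 the counts were 15 and 5 for mitosis and 8 and 10 for replication. Of 21 p53 targets 3 rose and 9 fell (14.3 and 42.9%), with a median of -0.22: *CDKN1A*, for the cell cycle inhibitor p21, fell from 329, 292 and 297 CPM to 182, 182 and 165 CPM, *GADD45A* fell by 1.49 and *TP53I3* by 1.42 on the log2 scale, and *BBC3*, for the death protein PUMA, had a log2 fold change of 0.68. Without that library 14 of these targets were lower. Of 8 replication-dependent histone genes, whose mRNAs mostly lack a poly(A) tail, *HIST1H2BK* (0.70) and *HIST2H2BE* (0.64) rose.

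Among the genes of translation and protein quality outside the ER, 36 of 78 cytosolic ribosomal protein genes rose and 2 fell (46.2 and 2.56%, against 21.8 and 29.2% of all genes), with a median of 0.16. Over 15 libraries 23 rose, and with quantile normalization 33 rose and 9 fell, with a median of 0.07. *RPL11* rose from 519.9, 493 and 478 CPM to 830.1, 765 and 753 CPM, and *RPL14* and *RPL15* had log2 fold changes of 0.59 and 0.63. Reads of these genes can be shared with their many pseudogenes, and without *ALG6/UGGT2*-/- replicate 1 the counts were 62 and 4. Of 20 heat shock genes of the cytosol and mitochondria 5 rose and 4 fell: *HSPA8* (0.57), *HSPB1* (0.52) and the near-identical copies *HSPA1A* (0.65) and *HSPA1B* (0.33), between which reads are split with uncertainty, rose, while *AHSA1* (-0.62), *HSPA9* (-0.52) and *HSP90AB1* (-0.26) fell. Of 19 NRF2 targets 7 rose and 2 fell (36.8 and 10.5%). *HMOX1*, for heme oxygenase, rose from 68.9, 63.9 and 60.3 CPM to 112, 120.3 and 115 CPM. *PRDX1* had a log2 fold change of 0.79, and the efflux pump *ABCC1* fell by 0.47 on the log2 scale. Of 25 autophagy genes 4 rose and 10 fell (16.0 and 40.0%), with *SQSTM1*, the receptor p62 (-0.81), and *ATG5* (-0.94) lower and *WIPI2* (0.80) higher. The lean to falls among the autophagy genes depended on the scaling. With median ratio rescaling 7 rose and 7 fell, with quantile normalization 8 and 8, and with the length and GC correction 9 and 9. Of 13 mitochondrially encoded mRNAs *MT-ATP8* (0.25) rose and *MT-CO2* (-0.23) fell, the latter called under 5 of 17 alternatives. When *ALG6/UGGT2*-/- replicate 1 was left out, 6 heat shock genes rose and 9 fell, 9 NRF2 targets rose and 6 fell, 6 autophagy genes rose and 13 fell, and 2 mitochondrial mRNAs rose and 4 fell. Over all 14113 genes 3773 were then higher and 6098 lower.

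The signalling and adhesion lists stand beside 21.8% higher and 29.2% lower over all genes. Of 24 immediate early genes 3 rose and 9 fell (12.5 and 37.5%), and *JUN* went from 534, 566 and 589.6 CPM to 269, 259 and 274 CPM. Among 16 Notch genes 4 rose and 6 fell (the latter 37.5%): *HES1*, the main target, fell by 1.31 on the log2 scale, whereas the targets *NRARP* (1.08) and *HEYL* (0.66) rose. Of 17 Wnt genes 5 rose and 4 fell (29.4 and 23.5%), among them *NKD1* (0.94), *LEF1* (0.67) and *LGR5* (-1.43), and of 13 BMP and TGF-beta genes 5 rose and 3 fell (38.5 and 23.1%), with *NOG* at 0.90, *ID1* at 0.76 and *LTBP1* at -0.28. Of 16 integrins *ITGB8* (0.81) and *ITGB5* (0.33) rose and *ITGA5* (-0.78), *ITGB4* (-0.77), *ITGA8* (-0.96) and *ITGA9* (-0.27) fell, the last called under 6 of 17 alternatives. Of 29 matrix genes 12 rose and 10 fell (41.4 and 34.5%), or 4 and 5 over 15 libraries, from *LAMA5* (0.85) and *LOXL2* (0.67) to *SPARC* (-0.97) and *COL6A3*, which fell from 6.65, 7.16 and 6.80 CPM to 2.17, 1.58 and 1.48 CPM. Of 23 interferon-stimulated genes 3 rose and 7 fell (the latter 30.4%), with *STAT2* (0.70) and *IFIT1* (0.83) higher and *ISG15* (-1.07) lower. Leaving out *ALG6/UGGT2*-/- replicate 1 gave 5 rises and 5 falls for the BMP and TGF-beta genes, 3 and 7 for the integrins and 5 and 7 for the interferon-stimulated genes. Of 9 HEK293 markers tested 8 rose, with a median of 0.66, and their summed level was 1157 to 1227 CPM in *ALG6/UGGT2*-/- cells and 1814 to 1895 CPM in the triple knockout. *TUBB3*, a neuronal tubulin, rose from 6.98, 5.03 and 6.15 CPM to 15.4, 15.4 and 15.7 CPM. Of the 18 markers of other cell types, whose sum was 55.0 to 59.5 CPM in *ALG6/UGGT2*-/- cells and 19.0 to 20.4 CPM in the triple knockout, the smooth muscle actin *ACTA2* and the epithelial cadherin *CDH1* (-0.45) fell, and *DES* and *GFAP* were not called. The part of these markers in the other results was not tested.

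Past the lists, the 15 largest rises among well-expressed genes held few secretory genes beside *CALR*, *DERL3* and *HSP90B1*. *SFXN3*, a mitochondrial serine carrier, rose from 9.74, 8.39 and 7.15 CPM to 32.9, 32.7 and 32.6 CPM (log2 fold change 1.91). *ANXA6*, a calcium-dependent membrane binder, rose from 80.1, 68.0 and 58.5 CPM to 226, 228 and 242 CPM (1.76), and *CDKN2C*, an inhibitor of the kinases CDK4 and CDK6, from 23.1, 21.5 and 20.8 CPM to 68.6, 68.9 and 72.3 CPM (1.66). *IVNS1ABP* (1.70), *TNFAIP8L1* (1.65), *RTN4RL1* (1.63), *NDRG1*, the ubiquitin ligase *NEURL1B* (1.58), the centrosome protein *LRRC45* (1.56), the death protein *BMF* (1.53), *PIANP* (1.52) and the zinc finger gene *ZNF341* made up the rest.

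The 15 largest falls reached lower levels. *SCN4A*, for a sodium channel of skeletal muscle, was at 69.3, 64.4 and 67.6 CPM in *ALG6/UGGT2*-/- cells and at 4.37, 4.64 and 3.82 CPM in the triple knockout (-3.82 ± 0.09 on the log2 scale with its standard error, limma adjusted p = 4.76e-06). *TNFRSF9*, a receptor of the tumour necrosis factor family, fell from 72.8, 73.0 and 77.8 CPM to 6.87, 7.36 and 5.81 CPM (-3.39), and *FGF21*, a hormone that ATF4 induces, from 23.9, 23.0 and 23.7 CPM to 4.93, 4.19 and 3.04 CPM (-2.42). *DDX19B*, an RNA helicase of mRNA export, fell from 25.7, 23.8 and 22.7 CPM to 1.94, 1.93 and 2.60 CPM; its neighbour *DDX19A* is a close copy with which it can exchange reads, and that gene had a log2 fold change of -0.27. *S100P* (-3.63), the R-spondin receptor *LGR6* (-3.18), the kinase *ALPK2* (-3.05), *C19orf38* (-2.65), *FBLL1* (-2.30) and *ACTA2* (-2.27) followed the same direction, beside *TXNIP*, *CTH* and *ATF3*. For *ACTA2* 45.4, 42.0 and 46.4 CPM became 9.08, 9.24 and 8.23 CPM.

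At the bottom of the range were *IAH1*, for a lipase-like esterase, and *GALC*, for the lysosomal galactosylceramidase. *IAH1* (chromosome 2, 9473658 to 9496543) was at 16.1, 11.9 and 13.6 CPM in *ALG6/UGGT2*-/- cells and at 0.0735, 0.189 and 0.039 CPM in the triple knockout, and *GALC* (chromosome 14, 87837820 to 87993665) was at 4.35, 5.57 and 6.14 CPM and listed at 0 in the 3 triple knockout libraries. Genes under 0.2 CPM in each triple knockout library and at 1 CPM or more in each *ALG6/UGGT2*-/- library numbered 13, and none showed the reverse. Of the 13, 6 were also under 0.2 CPM in the 3 libraries of *ALG6*-/- cells. The means of *IAH1* in the WT, *ALG6*-/- and *ALG6/UGGT1*-/- lines were 7.33, 0.028 and 21.6 CPM, and those of *GALC* were 3.29, 0 and 4.22 CPM. *ALDH1L1*, *PNMAL2* and *ZNF597*, named after their values were seen, were near 0 in the triple knockout alone, with means of 3.47, 0.93 and 0.752 CPM in *ALG6*-/- cells.

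**Figure D4:**
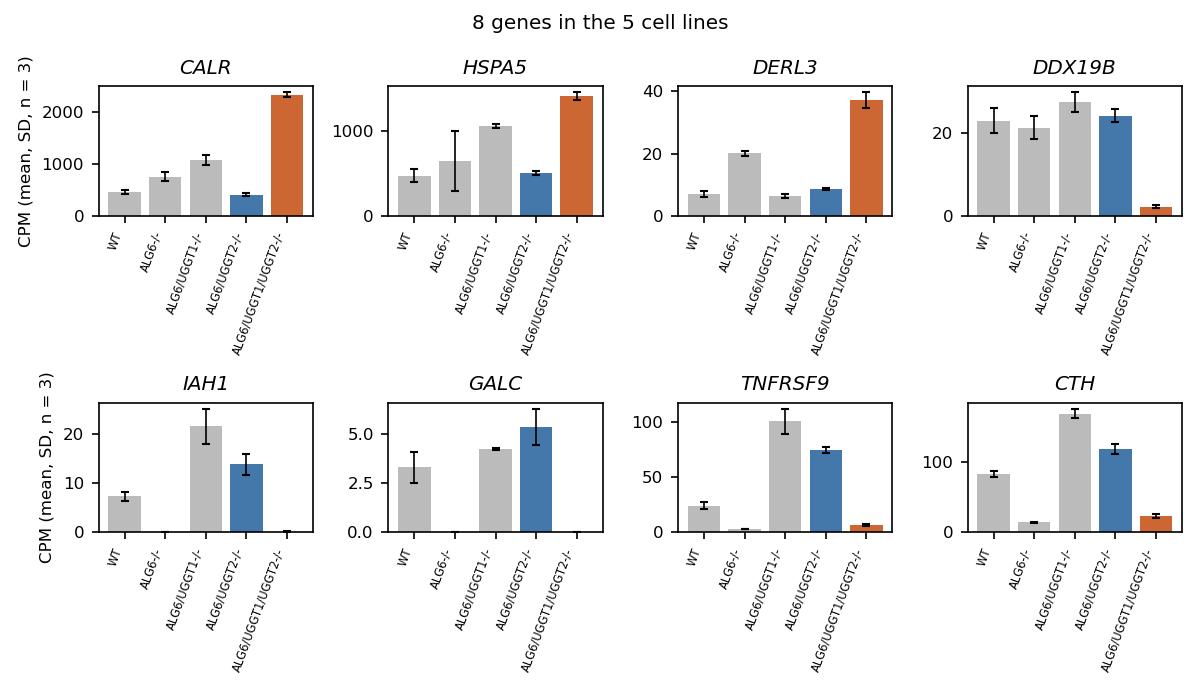
Mean CPM of 8 genes in the 5 cell lines of the series, with the SD of 3 replicates, on linear axes from 0. *CALR*, *HSPA5* and *DERL3* are highest in the triple knockout, *DDX19B* is low there alone, and *IAH1*, *GALC*, *TNFRSF9* and *CTH* are low in the triple knockout and in *ALG6*-/- cells.

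The design also holds the loss of UGGT1 with UGGT2 still present, in *ALG6/UGGT1*-/- against *ALG6*-/- cells. The 2 effects share no library, and their difference was tested by limma over the 12 libraries of lines without ALG6. Each of these lines is a single clone, so differences among clones cannot be told apart from a difference between the effects. The *ALG6*-/- libraries stood apart, with median ratios of 0.669 to 0.916 to the 15 libraries, so that the median effect with UGGT2 present was 0.51 on the log2 scale and the median difference -0.59. The difference was called for 9546 genes (67.6%), of which 2950 were higher (20.9% of the genes tested) and 6596 lower (46.7%). Rises were 30.9% of these calls, against 49.5% with median ratio rescaling and 52.4% with the length and GC correction. Effects of single genes are therefore given less the median of all genes unless stated, while the tested differences are given before centring.

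With UGGT2 lost, *CALR* rose by 2.58 above the median gene on the log2 scale, and with UGGT2 present it was at the median (0.00). Before centring the latter effect was 0.52 ± 0.10 (standard error), from a mean of 749 to one of 1071 CPM, and it was 0.49 with the length and GC correction, so that its place at the median rests on the centring. The difference of 2.01 before centring was called (standard error 0.14, adjusted p = 6.62e-07 from limma), and so was that of *PDIA4* (1.22, adjusted p = 7.04e-06), with effects before centring of 1.45 and 0.23. For *HSPA5* the centred effects were 1.54 and 0.35, which differ by more than the effects before centring. The difference before centring, 0.63, was not called (adjusted p = 0.202 from limma). It was called with median ratio rescaling (1.19, adjusted p = 0.00494 from limma). Its level in *ALG6*-/- cells ran from 334 to 1031 CPM. For *CANX* the centred effects were 1.11 and 1.09. The difference before centring was not called (-0.55, standard error 0.54). With the length and GC correction it was positive and called (0.79, limma adjusted p = 0.00196). Of the 19 ER chaperones and ATF6 targets the difference was higher for 7 and lower for 3, beside 20.9 and 46.7% of all genes. With the length and GC correction these counts were 14 and 2.

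Of the 40 PERK, ATF4 and CHOP genes, 31 were below the median gene with UGGT2 lost and above it with UGGT2 present, as a description with no test of each sign. The share of all genes with these signs is not given here. Of the members 35 had a lower difference and 2 a higher one, beside 46.7 and 20.9% of all genes. With the length and GC correction these counts were 33 and 3 of 38, beside 4317 lower and 4751 higher over all genes. *CTH* was 2.29 below the median gene with UGGT2 lost and 3.04 above it with UGGT2 present, and *CHAC1* was 1.61 below and 3.64 above. Before centring their differences were -5.90 (adjusted p = 7.41e-10 from limma) and -5.81. *ATF3* (-4.27) and *XBP1* (-3.29) had differences of the same sign, also before centring. *ATF5* was above the median in both, by 0.88 and 2.61. Levels in *ALG6*-/- cells were 13.7 to 14.5 CPM for *CTH* and 7.19 to 8.15 CPM for *CHAC1*, below the means of the 4 other lines. Among the smallest p-values toward a lower difference were those of *CHAC1*, *CTH*, *TNFRSF9* and *BEST1*, and those toward a higher one belonged to *HSPA1B*, *HSPA1A*, the small nucleolar RNA host gene *SNHG3*, *CXCR4* and *FDFT1*. *HSPA1A* had a mean of 5371 CPM in *ALG6*-/- cells and of 254 to 579 CPM in the others.

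**Figure D5:**
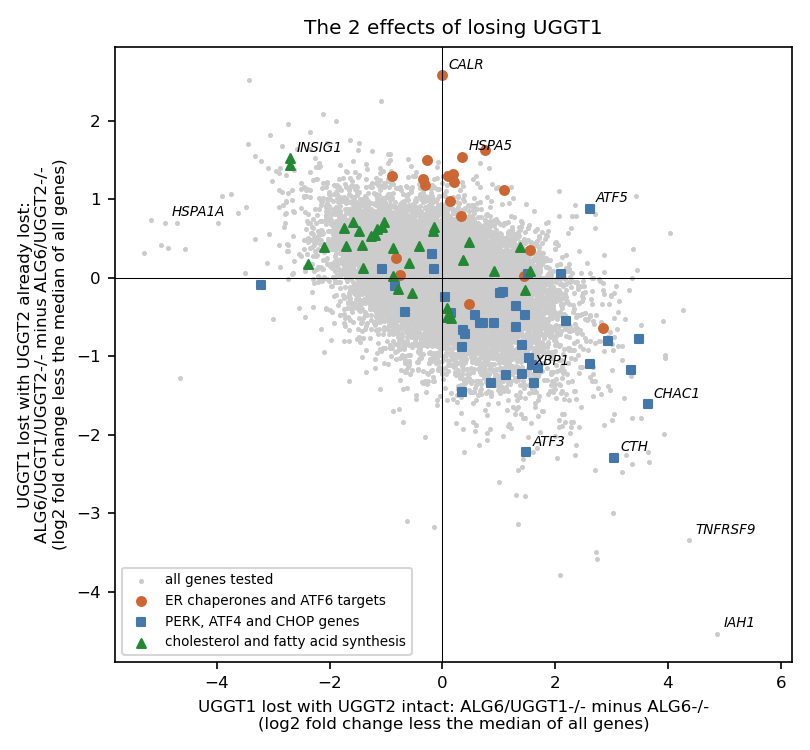
Log2 fold change on losing UGGT1 with UGGT2 present (x axis, *ALG6/UGGT1*-/- minus *ALG6*-/-) and with UGGT2 lost (y axis, triple knockout minus *ALG6/UGGT2*-/-), each less the median of all genes, for the 14113 genes tested (grey) and 3 lists. *CALR* sits at 0.00 and 2.58, most PERK, ATF4 and CHOP genes lie at the lower right, and *INSIG1* lies at the upper left (-2.70 and 1.52).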

How the data were processed

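The authors lysed cells in TRIzol, prepared poly(A) libraries with a directional kit and sequenced each in 4 lanes. The authors aligned reads to hg38 by STAR, quantified genes by RSEM and converted the counts to CPM, for which the authors used edgeR. Versions of these tools and the strand setting of the count are not given in the sources used here. The deposited CPM table holds 15 libraries, each summing to 1000000, and 42141 genes, of which 28 have names turned into dates. It also holds 8 columns without a header, which were not used. About 90% of low values were whole reads (within 0.02), so no count test was run. The edited lines were placed in groups by the cell line in the labels, and the 60 deposited lane samples are combined in the table.

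Values entered limma 3.58.1 (R 4.3.3) as log2(CPM + 0.5), with a variance that follows the mean, over the 6 libraries compared (4 residual degrees of freedom). The Benjamini-Hochberg adjustment ran over the 14113 genes, with calls made under an adjusted p of 0.05. A fold change on this scale understates the change of low genes. The difference of 2 effects used the 12 libraries of lines without ALG6. Exact permutation tests were two-sided. The fit was tested on simulated data with few changed genes and the same spread in all libraries. Such data differ from these libraries, so that test does not give the error rate here. Tables were made with pandas 2.3.3 and SciPy 1.17.1 in Python 3.11.15. Coordinates, transcript length and GC content came from GENCODE 44, which covered 12983 of the genes (92.0%), 1082 symbols of the table having been matched by an older name.

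The comparison, the 35 gene lists and the rule for naming genes were chosen with earlier results of these data known. Named are the edited genes, the 15 largest called rises and falls whose replicates do not overlap and whose higher line reaches 5 CPM (clone identifiers, LOC, LINC and antisense names left out), from each list the 6 members of smallest p, all called members of lists with 5 or fewer, the genes the paper shows for its RNAseq data, and 5 genes per direction for the difference. As alternatives, the pseudocount was 0.1 or 2, the filter was dropped or set to a mean of 5 CPM, and the following were tried: median ratio rescaling, quantile normalization, the replicate block, leaving out each replicate, a variance without trend, a threshold of 1 on the log2 fold change, splines with 5 degrees of freedom for length and GC content, and fits over 12 or 15 libraries. Results on some single genes are not reported here.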

Additional observations from a re-analysis of the deposited data

Results flagged for a closer look

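The difference between the effects of losing UGGT1 without and with UGGT2 was called by limma for 9546 genes, with ALG6 absent throughout. Each line compared is a single clone, so differences among clones cannot be told apart from it. Named genes with such a difference follow, as log2 values before centring on the median of -0.59. Higher with UGGT2 lost were *HSPA1A* (5.04), *HSPA1B* (4.68), *CXCR4* (4.38), *FDFT1* (3.57), *SNHG3* (3.17), *CALR* (2.01) and *PDIA4* (1.22). Lower were *TNFRSF9* (-8.28), *BEST1* (-6.42), *CTH* (-5.90), *CHAC1* (-5.81), *ATF3* (-4.27), *XBP1* (-3.29) and *ATF5* (-2.29). Apart from *CALR*, *PDIA4* and *ATF3*, each of these genes had an *ALG6*-/- mean outside the range of the 4 other lines. The part of the *ALG6*-/- libraries in these differences was not tested.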

How the results depend on the processing

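A minimum log2 fold change of 1 left 115 genes for the comparison, 19 higher and 96 lower, and 2929 for the difference of the UGGT1 effects, 715 higher and 2214 lower. For that difference, 4605 genes were higher and 4271 lower with quantile normalization, 4751 and 4317 with the length and GC correction, and 4317 were lower with median ratio rescaling. Leaving out each replicate gave 5496 to 9871 genes for the comparison (2267 to 3773 higher, 3229 to 6098 lower) and 8679 to 10755 for the difference (2721 to 3132 higher, 5939 to 7697 lower). The highest count, 9871, came without *ALG6/UGGT2*-/- replicate 1, when 99.5% of the 7191 genes called with it were called in the same direction. The other alternatives moved these counts by 1.5 times or less. Deviations of same-numbered replicates of the 2 lines correlated at 0.263, 0.207 and 0.0174, so the numbers were not taken as pairs, and the replicate block gave 7134 genes. Over 3657 refits of named genes 61 lost the call, 26 gained it and 1 turned direction (*MANEA*, from -0.38 to 0.02 with the length and GC correction). These refits leave out the fit over 12 libraries, in which 17 of 212 calls were lost. Of 1120 list counts 162 moved by over 1.5 times. At a depth of 24.42 to 27.2 reads per CPM, the falls of *IAH1* and *GALC* to near 0 rest on few reads in the triple knockout. The cause of these shifts was not tested.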
